A study of Caenorhabditis elegans with 4 samples.

Results

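Wide LIN-13 binding domains are the peaks of 800 bp or more in a chromatin immunoprecipitation sequencing (ChIP-seq) map of Caenorhabditis elegans embryos. They were selected on peak width alone, taken as end minus start plus 1, on all 6 nuclear chromosomes. There were 316 of them among 5502 peaks (5.74%), and 5186 peaks were narrower. Because width chose the domains, their width, and the q-value that comes from the same reads, are given as a description. The q-value of a peak is its p-value for more ChIP than input reads, corrected for the number of regions examined. The 316 domains covered 351 kb, or 17.9% of the 1958 kb in all peaks, against 1607 kb in the narrower peaks.

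The worms were hermaphrodites of strain OP51, grown at 20 °C. They carried the unc-119(ed3) mutation on III and the transgene wgIs73, in which lin-13 is tagged with TY1, EGFP and FLAG and comes with a functional unc-119 copy. No mutation of the endogenous lin-13 gene is listed in the genotype, so untagged LIN-13 would not have been seen by the antibody. There were 2 ChIP libraries, for which an anti-GFP antibody raised in goat was used, and 2 libraries of input DNA, all from whole embryos fixed with 2% formaldehyde. All libraries share the strain, the stage and the transgene, and whole embryos mix all cell types. The authors combined both replicates into 1 list of positions and q-values, with coordinates of WormBase WS180. With 1 list and no values of single libraries, replicate error could not be attached to any value, and no difference was tested. Depth is not stated in the list. Intervals on shares are exact Clopper-Pearson 95% intervals that cover counting error only, with each peak counted as independent. Peaks of 1 list are not replicates, and peaks close together count each other as neighbours. Intervals that overlap or lie apart are therefore a description and not a test.

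LIN-13 carries many zinc fingers and belongs to the synthetic multivulva genes of class B. Together with LIN-35, the worm relative of Rb, these genes keep vulval and germline programmes off in other cells. LIN-13 works with HPL-2, a homologue of heterochromatin protein HP1, and with the malignant-brain-tumour repeat protein LIN-61. In this worm, the arms of the autosomes are rich in repeats and in heterochromatin, and their centres are rich in broadly expressed genes. The same split into arms and centre was applied to X, for which this background is not meant. A peak caller reports as 1 wide peak any stretch where enriched windows follow each other closely, so a wide peak can be a single broad zone or several sites whose reads run together. The list does not tell these apart. No annotation or genome of this build was used, so the domains are named by position only, without genes or bases.

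Most wide domains were only moderately wide. Width had a median of 982.5 bp in the wide domains (quartiles 876 and 1181 bp), against 293 bp in the narrower peaks (quartiles 198 and 399 bp). Here and below the upper bound of a width range is not part of it. From 800 to 1000 bp wide were 168 domains, 112 measured 1000 to 1500 bp, 36 reached 1500 bp and 14 reached 2000 bp. Widths ran on across the limit without a gap. Just inside it were domains on V at 4964009 to 4964808 (800 bp, q-value 5.97e-13) and on X at 7232006 to 7232805 (800 bp, q-value 4.61e-05) and 10524471 to 10525271 (801 bp, q-value 2.51e-11). Just outside it were peaks on II at 5844535 to 5845332 (798 bp, q-value 2.68e-36), on I at 8135453 to 8136250 (798 bp, q-value 2.32e-06) and on III at 13070306 to 13071102 (797 bp, q-value 3.61e-40). Of these 6 peaks the 2 with the smallest q-values lay outside the limit.

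The widest domain of all lay near the right end of chromosome IV, from 16489883 to 16493250. It was 3368 bp wide with a q-value of 4.84e-44, and another wide domain, of 1057 bp, followed 662 bp further on. Next in width was the domain of II at 14249144 to 14251947, 2804 bp wide, which also had the smallest q-value of the whole list, 6.19e-125. Almost as wide was the widest domain of I, in the centre of that chromosome at 6154200 to 6156999, with 2800 bp, but its q-value of 3.14e-16 only ranked 376 in the list. Among these very widest domains the order by width was therefore not the order by q-value. As a group the 20 widest were strong, with a median q-value of 1.69e-27. Chromosome I also held domains of 2676 bp at 1067759 to 1070434 (q-value 1.51e-39) and of 2458 bp at 1834970 to 1837427 (q-value 1.81e-63), both on its left arm. On IV, the domain at 14032433 to 14035008 was 2576 bp wide and had the second smallest q-value of the list, 1.79e-103.

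Domains of 2 kb or more occurred on all 6 chromosomes. Besides those named, II had one in its centre at 5660962 to 5663314 (2353 bp, q-value 2.41e-31), and IV had one at 13029137 to 13031364 (2228 bp, q-value 6.79e-30). The widest of X lay at 4960962 to 4963170 (2209 bp, q-value 6.64e-36), followed on the same chromosome by 6090579 to 6092743 (2165 bp, q-value 2.66e-30). Both X domains were in the centre. Chromosome III had its widest domain at 12614104 to 12616285 (2182 bp, q-value 1.45e-12), then 11935086 to 11937112 (2027 bp, q-value 3.06e-08) and 1925025 to 1927050 (2026 bp, q-value 6.01e-22), all on its arms. The widest of V, on the left arm at 1574764 to 1576863, measured 2100 bp with a q-value of 2.99e-19. Of these 14 domains 9 lay on the arms and 5 in the centres, and their q-values ran from 6.19e-125 to 3.06e-08.

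The remaining 6 of the 20 widest measured 1783 to 1647 bp. They lay on III at 1927288 to 1929070, on IV at 9772009 to 9773778 and 16775943 to 16777589, on V at 5283999 to 5285751 and 13788708 to 13790373, and on X at 13143892 to 13145607. The weakest of them, at 16775943 on IV, had a q-value of 4.93e-06, the largest among the 20. Another domain of 1647 bp, on IV at 15049514 to 15051160, was left out because its q-value of 2.31e-05 was larger. It had no peak within 2 kb. Chromosome IV held 5 of the 20 widest, III held 4, I, V and X held 3 each and II held 2. In all, 13 of the 20 had another peak within 2 kb, and 9 had one closer than 500 bp.

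**Figure D1:**
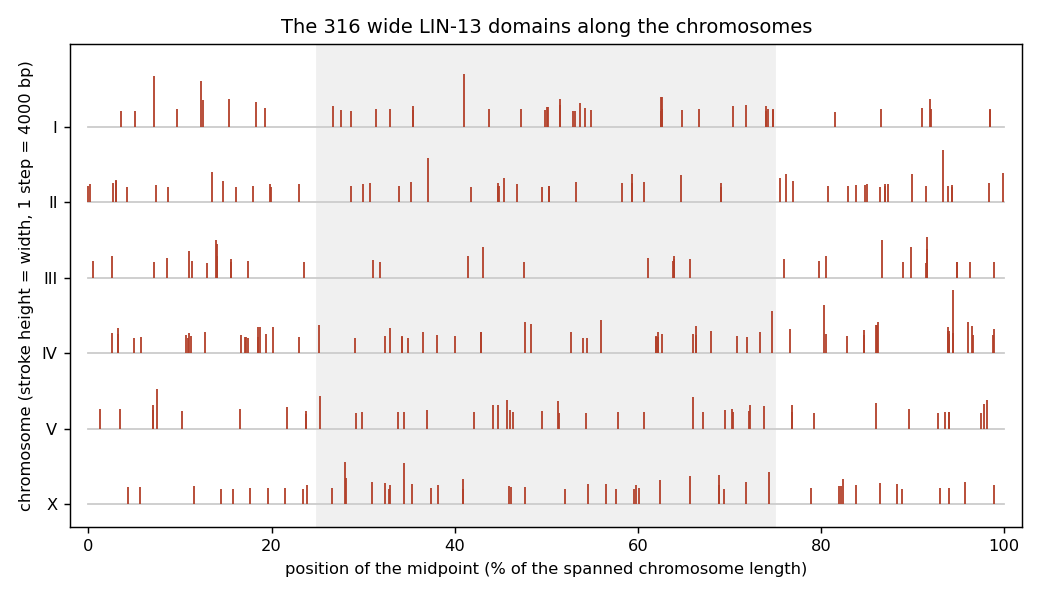
Position of each of the 316 wide domains along its chromosome, as a percentage of the length spanned by peaks; each stroke is a domain, its height is its width (to scale), and the grey band is the middle 50%. Domains occur along all 6 chromosomes, 153 of them in the band, and the tallest stroke is the domain of 3368 bp near the right end of IV.

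Wide domains made up different shares of the peaks on different chromosomes. Chromosome IV had the highest share, with 72 of 807 peaks (8.92%, interval 7.05 to 11.1), and V the lowest, with 48 of 1171 (4.10%, interval 3.04 to 5.40). Chromosome X followed IV with 52 of 701 (7.42%, interval 5.59 to 9.61), then came III with 37 of 570 (6.49%), I with 49 of 939 (5.22%) and II with 58 of 1314 (4.41%). The intervals of neighbours in this order overlap, while those of IV and V do not. On X the share was 7.42%, against 5.50% (interval 4.87 to 6.18) on the 5 autosomes together, and the intervals of X and the autosomes overlap. Among the 2751 peaks with the smaller q-values, the share was 15.3% on IV and 8.10% on V.

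Shares and densities gave different orders. Per Mb of spanned length there were 4.12 wide domains on IV, 3.80 on II, 3.27 on I, 2.94 on X, 2.69 on III and 2.30 on V. The density of narrower peaks was 42.1 per Mb on IV, 82.2 on II, 59.4 on I, 36.7 on X, 38.7 on III and 53.8 on V. Chromosome II, densest in narrower peaks, was therefore second in wide domains and next to last in their share. Between X and the autosomes, wide domains numbered 2.94 against 3.21 per Mb, while narrower peaks numbered 36.7 against 55.1 per Mb. The higher share on X thus went with fewer narrower peaks, not with more wide domains per Mb.

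Wide domains were less tilted towards the arms than narrower peaks. With the middle 50% of each chromosome as its centre, 153 of the 316 wide domains lay in the centres (48.4%, interval 42.8 to 54.1), against 2166 of the 5186 narrower peaks (41.8%, interval 40.4 to 43.1). The difference goes with the very narrow peaks. Of the peaks under 100 bp, 23.9% lay in the centres, and of those of 100 to 200 bp 25.1%. From 200 bp upwards the share was level, at 47.3% for 200 to 400 bp, 50.1% for 400 to 600 bp, 44.4% for 600 to 800 bp, 47.6% for 800 to 1000 bp, 50% for 1000 to 1500 bp and 47.2% for 1500 bp or more. Against narrower peaks of 200 to 800 bp alone, a comparison chosen after seeing the data, the centre shares were 48.4% and 47.7%. When peaks under 500 bp apart were merged first, the direction turned, with 42.4% of the wide regions and 43.1% of the narrower ones in the centres. The difference of 6.65 percentage points in all was 3.14 points without chromosome I and 2.58 points among the 2751 peaks with the smaller q-values.

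The placement also differed between chromosomes. On I, 33 of the 49 wide domains lay in the centre (67.3%, interval 52.5 to 80.1), against 41.6% of its narrower peaks, and the right arm held only 7 domains while the left held 9. Chromosome X had 57.7% of its wide domains in the centre, against 45.0% of its narrower peaks, and V had 54.2% against 42.3%. On IV the shares were 43.1% and 39.3%. On II and III the order was the other way, with 39.7% of wide domains against 42.8% of narrower peaks on II, and 27.0% (interval 13.8 to 44.1) against 38.1% on III. The intervals of the wide and narrower peaks are apart on I and overlap on the other 5 chromosomes. On III, 14 wide domains were on the left arm, 10 in the centre and 13 on the right arm. On IV, wide domains numbered 20 on the left arm and 21 on the right, against 309 and 137 narrower peaks.

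Wide domains stood closer to other peaks than narrower peaks did. The gap to the nearest peak, measured edge to edge so that width itself does not lengthen it, had a median of 1475 bp for wide domains (quartiles 473 and 4476 bp), against 3598 bp for narrower peaks (quartiles 1189 and 9715 bp). Peaks of 600 to 800 bp were in between, at 2580 bp. Among the 2751 peaks with the smaller q-values, which leave larger gaps, the medians were 3630 and 7961 bp. At a given distance between midpoints, a wider peak has a shorter edge-to-edge gap. Over all peaks, the medians from midpoint to midpoint were 2223 bp for wide domains and 3937 bp for narrower peaks. The smallest gap in the whole list was 200 bp, and a distance at which the caller joins peaks is not given in the sources used here. A gap under 500 bp was found beside 83 wide domains (26.3%), against 598 narrower peaks (11.5%). At the other end, 21 wide domains (6.65%) were more than 20 kb from any peak, against 562 narrower peaks (10.8%). The most isolated, chosen after the values were seen, was the domain of III at 6551204 to 6552049, with 63025 bp to its nearest neighbour.

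A neighbour within 2 kb stood beside 175 of the 316 wide domains (55.4%, interval 49.7 to 60.9), against 1847 narrower peaks (35.6%, interval 34.3 to 36.9). Peaks on both sides within that distance were found for 48 wide domains (15.2%), against 354 narrower peaks (6.83%). The mean number of neighbours was 0.823 for wide domains, against 0.494 for narrower peaks. Among the wide domains themselves the share was higher at greater width. It was 51.2% for domains of 800 to 1000 bp, 58.9% for 1000 to 1500 bp and 63.9% (23 of 36, interval 46.2 to 79.2) for 1500 bp or more, and these intervals overlap. Below 800 bp it was 44.4% for 600 to 800 bp, 36.3% for 400 to 600 bp and 31.3% for 200 to 400 bp, but 41.2% for 100 to 200 bp and 40.4% under 100 bp, so the lowest value belonged to peaks of middling width.

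The difference was present in each zone of the genome that was looked at. The share with a neighbour within 2 kb was higher for wide domains than for narrower peaks on each of the 6 chromosomes. It was 61.2% against 31.9% on I, 67.2% against 45.3% on II, 48.6% against 25.9% on III and 51.4% against 34.8% on IV. On V it was 70.8% against 40.2%, and on X, where peaks are sparse, 32.7% (interval 20.3 to 47.1) against 23.0% (interval 19.8 to 26.4), and these intervals overlap. In the centres it was 50.3% against 28.6%, and on the arms 60.1% against 40.7%.

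**Figure D2:**
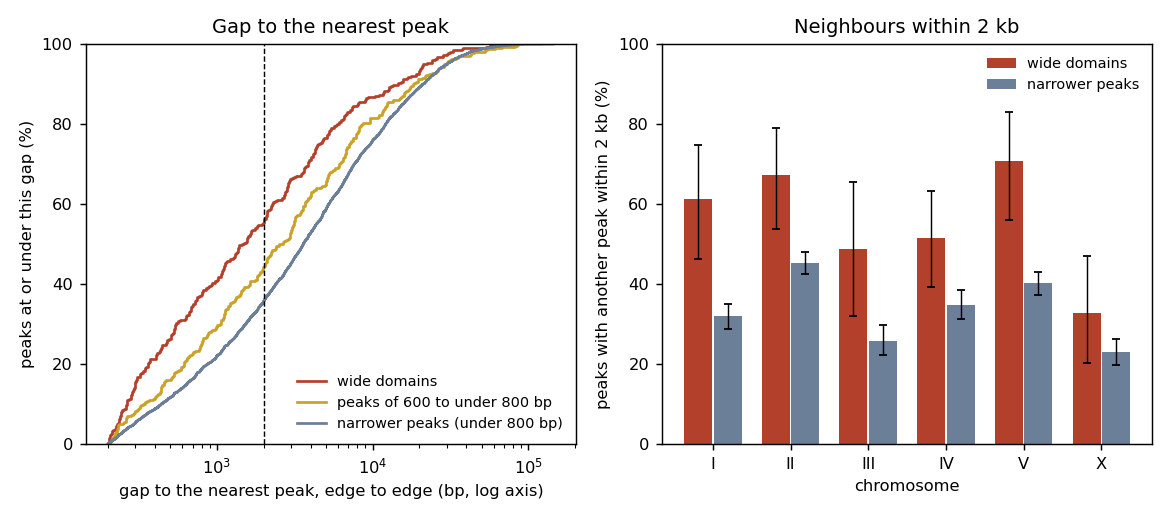
Left, share of peaks (%) whose nearest peak lies at or under the gap on the x axis (bp, log axis), for wide domains, peaks of 600 to 800 bp and all narrower peaks, with the 2 kb limit dashed. Right, share of wide domains and of narrower peaks with another peak within 2 kb on each chromosome, with Clopper-Pearson 95% intervals; the bar of the wide domains is the taller on each chromosome, from 32.7% against 23.0% on X to 70.8% against 40.2% on V.

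The peaks beside wide domains were mostly narrower ones, as were the peaks of the whole list (94.3%). Counted from the wide domains, 260 neighbours lay within 2 kb, of which 222 were narrower peaks and 38 were wide (14.6%). Counted from the narrower peaks, 222 of 2562 neighbours were wide (8.67%). Counted from the peaks of 600 to 800 bp alone, 43 of 238 were wide (18.1%), a higher share than beside the wide domains. The 213 narrower peaks beside a wide domain measured 352 bp in the median. This compares with 277.5 bp for the 1634 narrower peaks that had only narrower peaks near them and 295 bp for the 3339 with no peak within 2 kb. The median −log10 q-value of these 213 was 3.57, against 3.33 and 3.45 in the other groups. In q-value they thus stood close to the other narrower peaks, though at a larger median width. Peaks under 100 bp made up 3.76% of them, against 11.6% and 8.75% in the other groups.

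In 19 cases 2 wide domains lay within 2 kb of each other, which takes in 38 domains (12.0%). A wide domain lay as near to 4.11% of the narrower peaks and to 4.56% of all peaks. For peaks of 600 to 800 bp the share was 11.0% (41 of 372), so a wide neighbour was not particular to wide domains. The gap between them had a median of 414 bp and ranged from 208 to 1830 bp, and in 14 of the 19 pairs no peak lay in between. Pairs numbered 6 on IV, 4 each on I and II, 3 on III, 2 on V and 0 on X. The strongest pair was in the centre of IV, where domains at 7485865 to 7486981 (q-value 5.46e-77) and 7487661 to 7488764 (q-value 1.23e-66) were of nearly the same width, 1117 and 1104 bp, and 679 bp apart. This pair was, among the 19, the only one in which both members were among the 20 smallest q-values of the list. The longest pair spanned 5087 bp and consisted of the widest domain of all and the domain at 16493913 to 16494969 on IV, whose q-value was 5.31e-05.

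In all 3 pairs of III both members had a q-value under 1e-10. Of all 316 wide domains 50.6% were under that limit. The 37 wide domains of III had a median −log10 q-value of 12.70, so such values were common on III. The pair at 1925025 to 1927050 and 1927288 to 1929070 was 237 bp apart, spanned 4046 bp and had q-values of 6.01e-22 and 6.12e-23. The pair at 12612274 to 12613803 and 12614104 to 12616285 was 300 bp apart, spanned 4012 bp and had q-values of 2.25e-23 and 1.45e-12. The third, in the centre, lay at 8799776 to 8800916 and 8801331 to 8802316 with q-values of 1.04e-16 and 5.27e-18. Merging peaks under 500 bp apart would make the second of these pairs, with a further peak, the widest region of the genome, 5041 bp from 12612274 to 12617314.

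The other pairs were of mixed strength. On II they began at 7676048, 9059802, 13289858 and 14404887, and the closest of all pairs was the one at 9059802, with 208 bp between a domain of q-value 4.25e-52 and one of 3.06e-15. On I they began at 7711578, 9372843, 9381020 and 14756300, and those at 9372843 and 9381020 put 4 wide domains into 1 window of 100 kb. On IV the other pairs began at 560161, 3231517, 10867514 and 14791910. On V they began at 1470943 and 16040361. Both members had a q-value under 1e-10 in 8 of the 19 pairs, and only one member did in 6. Among all 316 wide domains the share under this limit was 50.6%.

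Wide domains were also found inside longer chains of peaks. When peaks were linked across gaps of up to 2 kb, 141 wide domains stood alone, among 3480 lone peaks (4.05%). The other 175 were among the 2022 peaks in chains of 2 or more, and the share of wide domains in the list was 5.74%. Of 810 such chains 152 held a wide domain (18.8%), and of the 34 with 5 or more peaks 20 did (58.8%). A chain of more peaks has more places for a wide domain by construction. The longest chain in the list had 12 peaks, on II from 2449830 to 2462314, and held 1 wide domain. Chromosome II had the next 3 chains holding a wide domain as well, of 11 peaks from 1320451 to 1331727 and of 10 each from 6823279 to 6834240 and from 2245672 to 2253183. In these 4 chains peaks covered 27.4%, 34.3%, 45.4% and 43.1% of the span. In windows of 100 kb, the most wide domains were 5, on IV from 16400001 to 16500000, among 11 peaks, and 3 further windows held 4.

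Wide domains had smaller q-values than narrower peaks, and both width and q-value come from the same reads. The median −log10 q-value was 10.05 for wide domains (quartiles 5.62 and 21.18), against 3.43 for narrower peaks (quartiles 2.48 and 6.05) and 6.67 for peaks of 600 to 800 bp. A q-value under 1e-10 was reached by 160 wide domains (50.6%), against 606 narrower peaks (11.7%) and 13.9% of the whole list. Under 1e-20 were 89 wide domains (28.2%), against 149 narrower peaks (2.87%) and 4.33% of the list. Width chose the domains and comes from the same ChIP against input comparison as the q-value, so these counts are a description and support nothing further. Of the 10 smallest q-values in the list 7 belonged to wide domains.

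Some wide domains had a weak q-value, though a smaller share than among narrower peaks. A q-value of 1e-04 or above was found in 43 wide domains (13.6%), against 3033 narrower peaks (58.5%), of which 96 were among the 372 peaks of 600 to 800 bp (25.8%). Of the wide domains 35 fell in the weaker 2751 peaks of the list. The 5 weakest were on IV at 14791910 to 14792874 (q-value 0.00975) and 5977475 to 5978396 (0.00924), on X at 3798705 to 3799548 (0.00941), and on V at 11336707 to 11337513 (0.00868) and 4960719 to 4961660 (0.00672). All 5 were under 1 kb wide. The strongest wide domain of each chromosome was not always a very wide one: on I it lay at 9988512 to 9989442 (931 bp, q-value 4.94e-95), on III at 4281693 to 4282622 (930 bp, 1.92e-35), on V at 10341768 to 10342705 (938 bp, 4.65e-52) and on X at 11605071 to 11606553 (1483 bp, 9.29e-79). On II and IV it was among the 5 widest domains of the genome.

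Within the wide domains, the rank correlation of width with the q-value was lower than within the narrower peaks. Spearman's rho between width and −log10 q-value was 0.32 over the 316 wide domains and 0.26 over the 148 of 1 kb or more, against 0.52 over the 5186 narrower peaks. The points share the same libraries, and the range of widths is cut at 800 bp. By width, the median −log10 q-value was 4.84 at 400 to 600 bp, 6.67 at 600 to 800 bp, 8.70 at 800 to 1000 bp, 11.68 at 1000 to 1500 bp and 23.61 at 1500 bp or more. The spread within each class was wide, with quartiles of 5.05 and 16.43 at 800 to 1000 bp and of 17.72 and 36.09 at 1500 bp or more.

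**Figure D3:**
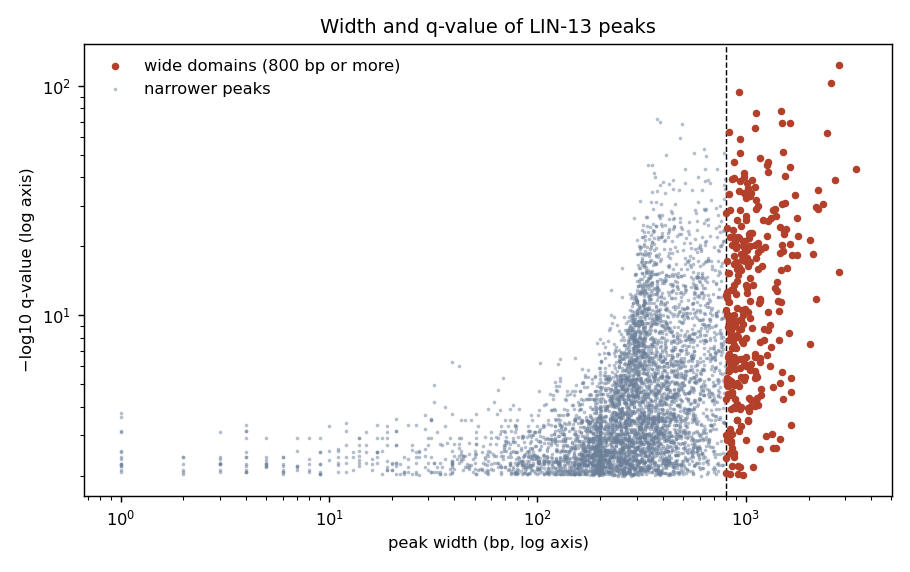
Width (bp, log axis) against −log10 q-value (log axis) for the 316 wide domains and the 5186 narrower peaks, with the limit of 800 bp dashed. Wide domains run from 2.01 to 124.21 on the −log10 scale, and 606 narrower peaks lie above 10 on this scale, where 160 wide domains do.

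The share with a neighbour was also compared within classes of q-value. Among peaks with a −log10 q-value under 3, 50% of the 22 wide domains had a neighbour within 2 kb, against 36.5% of the narrower peaks. Between 3 and 5 the shares were 52.3% and 37.0%, between 5 and 10 they were 52.2% and 33.9%, between 10 and 20 they were 63.4% and 32.6%, and from 20 upwards 55.1% and 31.5%. The difference thus ran the same way in all 5 classes. The intervals of wide and narrower peaks overlapped in the 2 classes under 5 and were apart in the other 3. They treat peaks as independent, though close peaks count each other, so this is not a test. The centre share did not: it was higher for wide domains in 4 classes and lower between 10 and 20, with 42.3% against 47.0%.

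Each q-value in this list, times its rank in deposited order, is the tail probability of a fair binomial split of a pair of whole numbers, multiplied by 26301. This held within 1e-11 on the natural log scale for all 5502 peaks, and for 0 peaks with that number 1 lower or 1 higher. The pair was unique for each of the 316 wide domains. Here the larger number is read as ChIP reads and the smaller as scaled input reads, which is a reading of the q-values and not a deposited count, and how the input was scaled is not given in the sources used here.

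On this reading wide domains held more reads per peak than narrower peaks, but at a lower median ratio of ChIP to input. They had a median of 209.5 implied ChIP reads and 88 implied input reads, against 69 and 26 in the narrower peaks. The ratio of the pair had a median of 2.38 (quartiles 1.90 and 3.02) in wide domains, against 2.65 (quartiles 2.19 and 3.40) in narrower peaks. With few reads, only a high ratio can give a q-value low enough for the list, and its part in this difference was not tested. Against narrower peaks of 200 to 800 bp the medians were 2.38 and 2.47. By width the ratio was 3.44 under 100 bp, 2.75 at 100 to 200 bp, 2.58 at 200 to 400 bp, 2.30 at 400 to 600 bp, 2.28 at 600 to 800 bp, 2.38 at 800 to 1000 bp, 2.32 at 1000 to 1500 bp and 2.66 at 1500 bp or more. From 400 to 1500 bp these medians lay between 2.28 and 2.38, and the widest class stood above them. Implied ChIP reads per kb of width had medians of 221 at 400 to 600 bp, 203 at 600 to 800 bp, 195 at 800 to 1000 bp, 201 at 1000 to 1500 bp and 209 at 1500 bp or more. At 200 to 400 bp the median was 250. Over all wide domains the medians were 201 ChIP and 87.0 input reads per kb, against 251 and 97.2 in all narrower peaks. Input reads per kb were 88.5 in peaks of 600 to 800 bp.

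**Figure D4:**
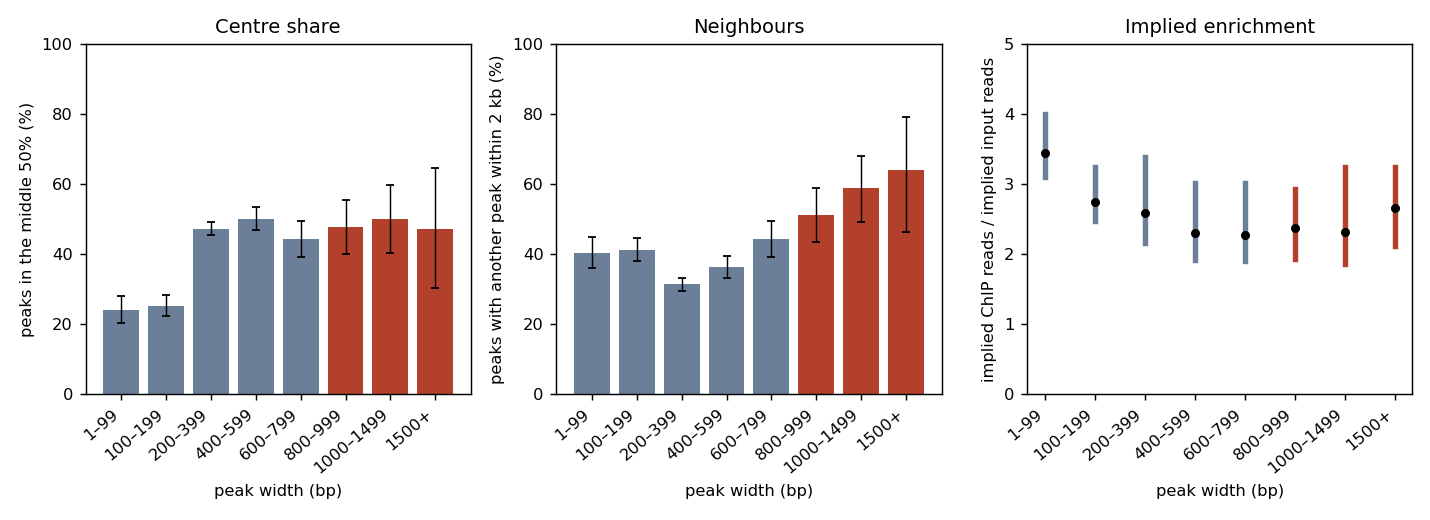
Peaks by width (bp): share in the middle 50% of the chromosome (%), share with another peak within 2 kb (%), both with Clopper-Pearson 95% intervals, and the median (dot) and quartiles (bar) of the ratio of implied ChIP to implied input reads; wide domains in red. The centre share steps up at 200 bp and is level after it, the neighbour share climbs from 31.3% at 200 to 400 bp to 63.9% at 1500 bp or more, and the median ratio is 2.28 to 2.66 in the 4 widest classes.

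Among the wide domains themselves the ratio varied widely, and it went with the q-value more than width did. Spearman's rho over the 316 domains was 0.91 between ratio and −log10 q-value and 0.08 between ratio and width, and since the q-value is computed from the same pair of numbers the first is partly built in. In 18 wide domains (5.70%) the ratio was 5 or higher, against 335 narrower peaks (6.46%). A ratio under 2 was found in 101 wide domains (32.0%), against 699 narrower peaks (13.5%). The highest, chosen after the values were seen, were all under 1 kb wide: V at 10341768 to 10342705 (305 ChIP and 35 input reads, ratio 8.71), V at 16040361 to 16041237 (289 and 36, ratio 8.03) and IV at 3050227 to 3051061 (391 and 50, ratio 7.82). The lowest were on V at 264952 to 265978 (420 and 305, ratio 1.38), on X at 14559610 to 14560956 (236 and 167, ratio 1.41) and on III at 5939538 to 5941178 (296 and 208, ratio 1.42). The widest domain of all had 711 ChIP and 269 input reads, a ratio of 2.64, while the strongest, on II, had 1010 and 203, a ratio of 4.98.

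Some wide domains sat on stretches where the input itself was high. The domain at 264952 on V had 297 implied input reads per kb and that at 5283999 on V had 218, against a median of 87.0 over all wide domains. The next 3 were on III, at 8416911 to 8417958 with 197 per kb, at 349323 to 350474 with 180 and at 8801331 to 8802316 with 178. They were picked as the highest after the values were seen, and their part in the width of these peaks was not tested. By chromosome, the median ratio of the wide domains was 2.63 on II, 2.37 on V, 2.36 on III, 2.32 on I, 2.30 on IV and 2.20 on X, and a different input scale on each chromosome cannot be told apart from a different enrichment.

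**Figure D5:**
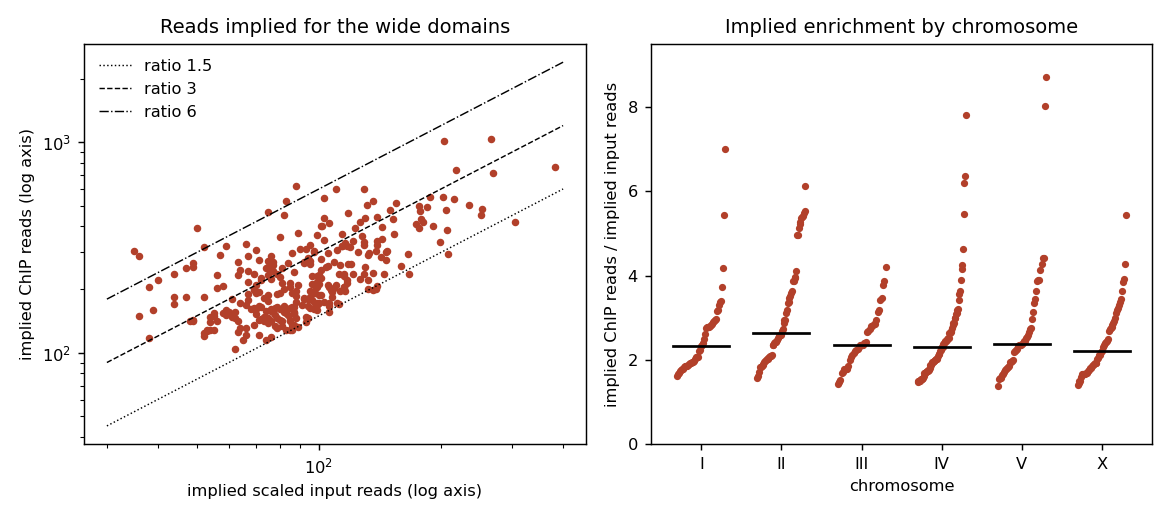
Left, implied ChIP reads against implied scaled input reads of the 316 wide domains (log axes) with lines of equal ratio. Right, the ratio for each wide domain by chromosome, sorted within the chromosome, with the median as a line; medians run from 2.20 on X to 2.63 on II, and single domains reach 8.71 on V.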

How the data were processed

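The input was the single deposited peak list. Its 5502 rows give positions and, per the file headers, coordinates of WormBase WS180. PeakSeq is named as the source in the deposited rows. The score in each deposited row is a q-value, a p-value adjusted by the authors, and it was 0.00996 at most and equal to the q-value in the attribute column in 5502 rows. For the PeakSeq version, aligner, read filters and input scaling, the sources used here say nothing. Start and end positions were used as deposited by the authors, counted from 1 (other unit: base pairs).

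Computed from them were width, edge-to-edge gap, neighbours within 2 kb, place in the middle 50% or on the arms (a chromosome ends here with its last peak), and the read pair behind each q-value. No test was made, since the authors pooled both replicates. Named domains are the 20 widest, the widest and the strongest of each chromosome, the 5 weakest, up to 3 on either side of 800 bp and pairs within 2 kb. Equal widths were ordered by q-value, the smaller first. The width rule, the domains and the comparisons were chosen with earlier results of these data known. Peaks were not assigned to genes, because the gene table at hand (assembly WBcel235) has another build. The measures were tested on simulated data. Python 3.11.15, numpy 2.4.6, scipy 1.17.1, pandas 2.3.3 and matplotlib 3.10.9 were used.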

Additional observations from a re-analysis of the deposited data

How the results depend on the processing

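Differences are wide minus narrower, and none was tested. Of 73 values recomputed under alternatives, 62 stayed within the counting error of the wide domains (for their number, within 1.5 times), 10 moved beyond it and 1 reversed. The error was that of the value for wide domains alone, without that of the narrower peaks. For IV against V it was that of the share on IV alone. For the centre share that error was nearly as large as the difference itself, so a fall to 2.58 points counted as staying within it. With narrower peaks limited to 100 bp or more, the number of wide domains could not change. The number of wide domains was 316, and it was 688 with a limit of 600 bp, 148 with 1000 bp and 484 after merging peaks under 500 bp apart. The centre share differed by 6.65 percentage points as reported, by 0.764 against narrower peaks of 200 to 800 bp and by -0.781, a reversal, after merging; the cause was not tested. Without chromosome I it was 3.14 points. The median gap differed by -2123 bp as reported, by -1656 bp with a limit of 600 bp and by -4331 bp in the 2751 peaks with the smaller q-values, where fewer peaks leave larger gaps by construction. The excess of wide domains with a neighbour within 2 kb was 19.8 points and ranged from 14.5 to 24.03 under its 15 alternatives. Measured from midpoint to midpoint it was 14.6 points, with 46.5% of wide domains against 31.9% of narrower peaks. The share of wide domains on IV exceeded that on V by 4.82 points, and by 7.25 points in the 2751 peaks with the smaller q-values. The median −log10 q-value differed by 6.62 as reported, by 4.65 with a limit of 600 bp and by 12.4 with 1000 bp. The median implied ratio differed by -0.276, and by -0.0953 against narrower peaks of 200 to 800 bp. The comparisons with narrower peaks of 200 to 800 bp, without single chromosomes and all those of the implied ratio were chosen after seeing the data. No paired analysis was possible because the 2 ChIP replicates share 1 q-value per peak, and for the same reason no replicate could be left out. Read depth is unknown, so neither a gap between peaks nor a narrow edge shows a lack of LIN-13.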
